A study of Saccharomyces cerevisiae with 9 samples.

Results

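The 10 genes described here carry purine bases into budding yeast cells, salvage them, and make GMP: the permease genes FCY2, FCY21 and FCY22, the salvage genes AAH1, APT1 and HPT1, and the GMP branch genes IMD2, IMD3, IMD4 and GUA1. They were chosen by name from the 6256 genes on the arrays, and all 10 were found. FCY21 and AAH1 had been noted earlier for their higher ratios in the ubp8 deletion strain on these same arrays. The ubp8 comparison therefore helped to choose the genes, and their values in it are given as a description. Where a call of these genes in ubp8 is mentioned, it is not read as a test.

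Yeast obtains purine nucleotides by making IMP step by step from phosphoribosyl pyrophosphate (PRPP), or by taking up and reusing bases. The permease Fcy2 imports adenine, guanine, hypoxanthine and cytosine, and Fcy21 and Fcy22 are its close relatives, whose transport is not well defined. Inside the cell, Apt1 joins adenine to PRPP to give AMP, Aah1 deaminates adenine to hypoxanthine, and Hpt1 joins hypoxanthine or guanine to PRPP. IMP dehydrogenase, encoded by IMD2, IMD3 and IMD4, commits IMP to the guanine branch, and Gua1 then makes GMP. IMD2 is known for its induction when guanine nucleotides run low, as under the drugs mycophenolic acid and 6-azauracil.

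RNA levels were compared between 5 strains on 9 Agilent arrays, each hybridised with a mutant in one dye and a reference strain in the other. The reference in 3 comparisons was BY4742, the wild type. Against it, 2 arrays of opposite dye each were made for CY1272, which carries Htb1_K123R with htb2_delta0 (K123R), for BY10809, which carries ubp8_delta0 (ubp8), and for CY1383, which carries Htb1_K123R, htb2_delta0 and ubp8_delta0 (the double mutant). The K123R strain was also compared on 3 arrays with BY13026, which carries htb2_delta0 alone (the htb2 deletion strain). H2B is a core histone, its lysine K123 is the site where ubiquitin is attached, and Ubp8 removes that ubiquitin as a subunit of the SAGA complex. By label, K123R thus differs from wild type in the lysine and in the HTB2 deletion, whereas both strains of the fourth comparison lack HTB2. Each group rests on 1 strain. Growth conditions are not given in the sources used here, and neither is whether arrays shared a reference RNA sample, so the spread between arrays may in part be technical.

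The deleted genes were low where the labels place them. UBP8 had a log2 ratio of -2.31 in ubp8 and -2.36 in the double mutant, and HTB2 had -3.78 in K123R and -3.40 in the double mutant, all past the test. HTB2 was also lower in K123R over the htb2 deletion strain (-0.45, adjusted p = 0.0195, arrays from -0.97 to -0.06), although both strains are labelled as lacking it. HIS3 was higher in K123R over wild type (3.17), in the double mutant over wild type (2.86) and in K123R over the htb2 deletion strain (3.63), but not in ubp8 (-0.22). LEU2 was higher in K123R over wild type alone (3.70). It was -0.015 in ubp8, -0.05 in the double mutant and -0.21 in K123R over the htb2 deletion strain. The 2 comparisons of K123R thus also differed in LEU2. Strain background beyond H2B and UBP8 therefore moves with the K123R comparisons, its part in the results below was not tested, and in each single comparison it cannot be told apart from the labelled genotype. Of 7 genes specific to mating type a, 0 passed the test in any of the 4 comparisons. The share of all genes called was 0.961% to 16.6% per direction, so little is read from that count. The nearest was BAR1 in ubp8 (0.49, adjusted p = 0.0503). The alpha-specific genes STE3 and SAG1 were lower wherever the mutant carried K123R (log2 ratios -0.69 to -1.15). The other alpha-specific genes, MF(ALPHA)1 and MF(ALPHA)2, passed against the htb2 deletion strain (-0.47 and -0.64) and not in K123R or the double mutant over wild type (adjusted p from 0.177 to 0.291). The median signal was 25.8 to 65.4 times the background over arrays and colours. All 10 genes were well above background in both colours on all 9 arrays, so dim signal removed none of them. A gene's ratio was missing where its spots were marked as outliers, which happened in 3 of 90 readings, and 2 readings of bright genes held a saturated spot. Precision is limited by the number of arrays.

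All values below are log2 ratios of mutant over reference, and those in 1 sentence are in array order. In the pairs against wild type, the mutant was in Cy5 on array 1 and in Cy3 on array 2. Against the htb2 deletion strain, K123R was in Cy5 on array 2 only, and the fitted mean there weighs both dye orientations equally. A gene passed the test at a limma adjusted p below 0.05 over all genes tested. The SE after each ± is also limma's. Its spread is pooled over all arrays of the fit and drawn toward that of other genes. It is therefore not the SE of a group's own arrays, and n counts only the arrays behind the mean. The arrays against the 2 references were normalised separately, so a level is not compared between them. The main fit against wild type has no dye term, whereas that against the htb2 deletion strain has one. Their counts of calls are therefore not compared either. In RNA from a whole culture, less RNA per cell and fewer cells that express a gene cannot be told apart.

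**Figure D1:**
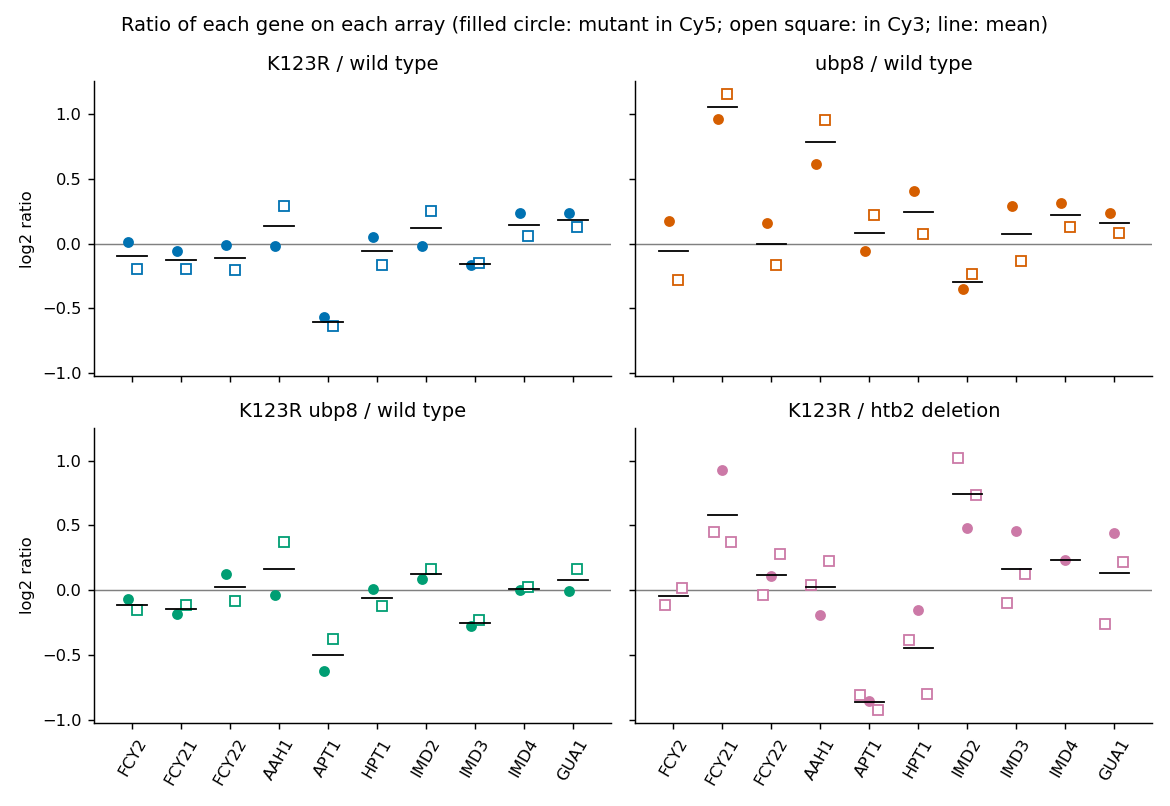
Log2 ratio (vertical axis) of each of the 10 genes (horizontal axis) on each array, in 4 panels by comparison. Filled circles have the mutant in Cy5, open squares have it in Cy3, and a line gives the plain mean. FCY21 and AAH1 stand highest in ubp8, APT1 lowest in every comparison with K123R, and FCY21 and IMD2 are above 0 on all 3 arrays against the htb2 deletion strain.

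Among the permease genes, FCY21 was the one that moved. Its ratios in ubp8 over wild type were 0.96 and 1.15, with a mean of 1.05 ± 0.07 (SE, n = 2 arrays), or 2.07-fold. Behind them were signals of 2679 and 2259 in ubp8 against 1380 and 1019 in wild type, in arbitrary units on the corrected scale. Both arrays, of opposite dye, are above 0, but FCY21 was noted on these same arrays, so their agreement is no independent support.

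In K123R over wild type, FCY21 had ratios of -0.06 and -0.19 (mean -0.13 ± 0.07, adjusted p = 0.258). The double mutant gave -0.18 and -0.11 (mean -0.15 ± 0.07, adjusted p = 0.203). These 4 arrays lie slightly below 0, and neither mean passed the test.

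FCY21 rose in K123R over the htb2 deletion strain, with ratios of 0.45, 0.92 and 0.37 and a fitted mean of 0.67 ± 0.08 (SE, n = 3 arrays), or 1.59-fold (adjusted p = 0.00658). All 3 arrays are above 0, and the array with K123R in Cy5 is the highest. Without array 1 the mean was 0.65 and the adjusted p 0.0561. Without array 2, the one with K123R in Cy5, the mean dropped to 0.41 (adjusted p = 0.0213). Within the slide that held arrays 1 and 2, the mean was 0.69 (adjusted p = 0.0183). FCY21 has 1 spot per array, and its signals there were low, at 616.2 to 790.2 in K123R and 416.3 to 536 in the htb2 deletion strain.

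FCY2, the main purine and cytosine importer, did not pass the test in K123R, the double mutant or the comparison with the htb2 deletion strain. Its ratios were 0.01 and -0.20 in K123R over wild type and -0.07 and -0.15 in the double mutant. In ubp8 they were 0.17 and -0.28, so the arrays differ in sign. Over the htb2 deletion strain they were -0.11 on array 1 and 0.02 on array 3, with array 2 missing because both spots were marked as outliers. Its result there thus rests on arrays with K123R in Cy3 only. FCY2 was bright, at 19430 to 35260 in either strain.

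FCY22 lies beside FCY21 with no gene between them. It had ratios of -0.01 and -0.21 in K123R, 0.13 and -0.08 in the double mutant, and 0.16 and -0.16 in ubp8. With the htb2 deletion strain as reference it had -0.04, 0.11 and 0.28, with a mean of 0.12 ± 0.10 (adjusted p = 0.401). Both K123R arrays over wild type are below 0, and the other 3 groups straddle it. The 3 permease genes are related in sequence. The probe sequences were not used here, so cross-hybridisation between them was not tested.

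FCY2, FCY21 and FCY22 sit close together on one chromosome, with 4 genes listed between FCY2 and FCY21 (RPL34A, HMF1, PET117 and PCL6). None of these 4 passed the test in any of the 4 comparisons, where 0.961% to 16.6% of all genes were called per direction. Their ratios ran from -0.15 to -0.03 in ubp8 and from -0.22 to 0.03 in K123R over the htb2 deletion strain. CEM1, which encodes a mitochondrial fatty acid synthesis enzyme and follows FCY22, fell in ubp8 (-0.59 ± 0.06, adjusted p = 0.0299). It rose in K123R over the htb2 deletion strain (0.42 ± 0.08, adjusted p = 0.0163). FCY21 was thus higher in both of these comparisons, while CEM1 was low in one and high in the other.

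**Figure D2:**
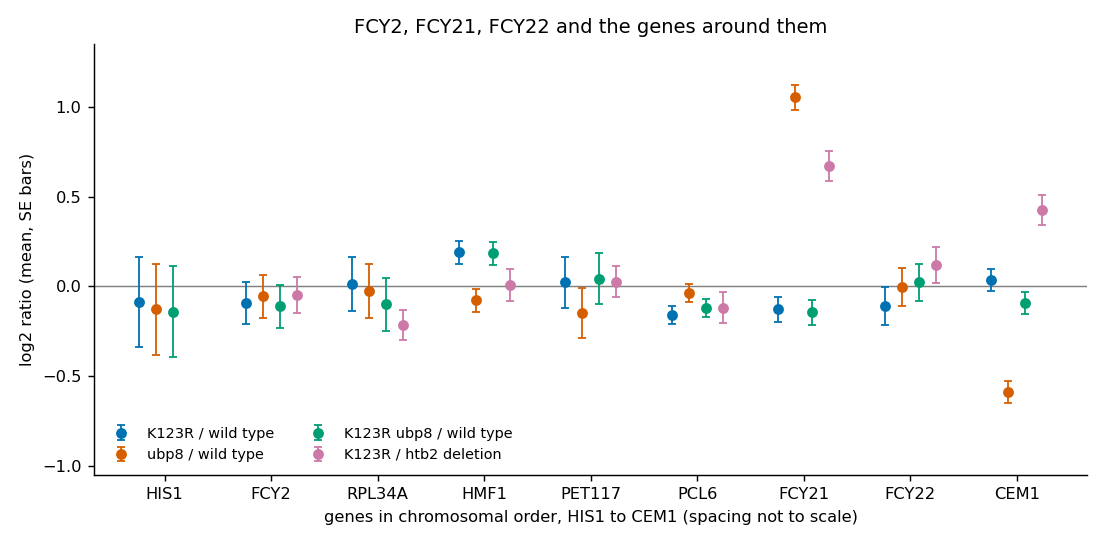
Mean log2 ratio with SE bars (vertical axis) for the 9 genes from HIS1 to CEM1 in chromosomal order (horizontal axis, spacing not to scale), coloured by comparison. FCY21 stands at 1.05 in ubp8 and 0.67 in K123R over the htb2 deletion strain, and CEM1 at -0.59 and 0.42. HIS1 was not tested against the htb2 deletion strain.

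Of the salvage enzymes, APT1 was lower in every comparison in which the mutant carried K123R. In K123R over wild type its ratios were -0.57 and -0.64, from signals of 7140 and 5586 in K123R against 10580 and 8693 in wild type. The mean was -0.60 ± 0.09 (SE, n = 2 arrays), which is 1.52-fold lower (adjusted p = 0.0136). The 2 arrays lie close together and both are below 0.

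APT1 also fell in the double mutant, with ratios of -0.62 and -0.37 and a mean of -0.50 ± 0.09, or 1.41-fold lower (adjusted p = 0.0226). Against the htb2 deletion strain its ratios were -0.80, -0.86 and -0.92, with a fitted mean of -0.86 ± 0.09 (SE, n = 3 arrays), or 1.81-fold lower (adjusted p = 0.00433). Both references thus gave the same direction on all 7 arrays with K123R. In ubp8 the ratios were -0.06 and 0.22, which straddle 0. The calls against wild type needed both arrays. With K123R array 1 or 2 left out, the adjusted p was 0.113 or 0.134, and with double mutant array 1 or 2 left out it was 0.173 or 0.0953. In these fits the lone array is assumed to vary like those of the other groups.

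HPT1, the hypoxanthine and guanine salvage enzyme, fell in K123R over the htb2 deletion strain. Its ratios were -0.38, -0.15 and -0.80, with a fitted mean of -0.37 ± 0.11, or 1.29-fold lower (adjusted p = 0.048). All 3 arrays were below 0 but spread widely. Without array 2 the mean was -0.59 (adjusted p = 0.0174). The call was lost without array 1 (-0.48, adjusted p = 0.128), without array 3 (-0.27, adjusted p = 0.147), without background correction (adjusted p = 0.0514) and without the filter on dim probes (adjusted p = 0.0539). Against wild type, HPT1 had 0.05 and -0.17 in K123R, 0.01 and -0.12 in the double mutant, and 0.41 and 0.08 in ubp8. It did not pass the test in K123R (adjusted p = 0.739) or in the double mutant (adjusted p = 0.757).

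AAH1, the adenine deaminase gene, had ratios of 0.61 and 0.95 in ubp8 over wild type, with a mean of 0.78 ± 0.14, or 1.72-fold. The signals were 7070 and 7138 in ubp8 against 4622 and 3699 in wild type. Both arrays, on which AAH1 was noted, are above 0, and the ratio was higher with the mutant in Cy3. The same dye order appears in the other pairs, at -0.02 and 0.29 in K123R and at -0.04 and 0.37 in the double mutant. Neither of those means passed the test in the main fit, which has no dye term for these arrays (adjusted p = 0.564 and 0.467). With array number as a replicate block, which is also a dye term for each gene, both passed (adjusted p = 0.00705 and 0.00294). These non-calls thus depend on how the dye order is handled. With the htb2 deletion strain as reference, AAH1 had 0.04, -0.19 and 0.23, and the array with K123R in Cy5 was again the lowest (mean -0.03 ± 0.09, adjusted p = 0.837).

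**Figure D3:**
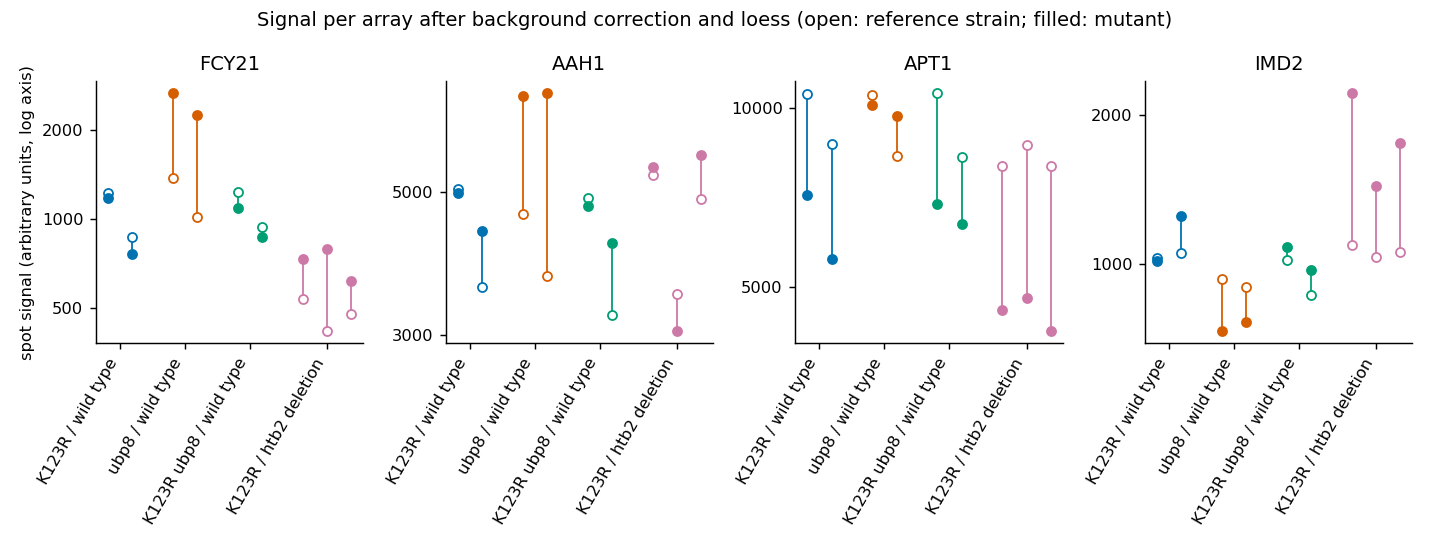
Signal of FCY21, AAH1, APT1 and IMD2 on each array (vertical axis, arbitrary units, log scale) after background correction and loess, with the reference strain as an open point and the mutant as a filled point joined by a line. For FCY21 the ubp8 points at 2679 and 2259 stand above their wild-type points, and for APT1 each point of a strain with K123R stands below its reference.

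In the GMP branch, IMD2 rose in K123R over the htb2 deletion strain. Its ratios were 1.02, 0.48 and 0.73, with a fitted mean of 0.68 ± 0.10 (SE, n = 3 arrays), or 1.60-fold (adjusted p = 0.00869). The signals were 2213, 1437 and 1750 in K123R against 1093, 1031 and 1054 in the htb2 deletion strain. The 3 arrays of K123R are all above the 3 of its reference. Leaving out any 1 array kept the call, with adjusted p from 0.00625 to 0.0462.

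Against wild type, IMD2 had ratios of -0.02 and 0.25 in K123R (mean 0.12 ± 0.08, adjusted p = 0.359) and 0.09 and 0.16 in the double mutant (mean 0.13 ± 0.08, adjusted p = 0.328). In ubp8 it had -0.35 and -0.23, with a mean of -0.29 ± 0.08. The ubp8 arrays are thus below 0 and the double mutant arrays above it.

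IMD3, another IMP dehydrogenase gene, had -0.17 and -0.15 in K123R (adjusted p = 0.333), -0.28 and -0.23 in the double mutant (adjusted p = 0.146), and 0.29 and -0.14 in ubp8. Over the htb2 deletion strain it had -0.09, 0.45 and 0.13, with a fitted mean of 0.24 ± 0.09 (adjusted p = 0.0967), and array 2 held a saturated spot. IMD3 was below 0 on all 4 arrays of K123R and the double mutant over wild type, yet no comparison passed the test.

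IMD4 had 0.23 and 0.06 in K123R (adjusted p = 0.212), 0.00 and 0.02 in the double mutant (adjusted p = 0.925), and 0.31 and 0.13 in ubp8. It was not tested against the htb2 deletion strain, where only array 2 gave a ratio (0.23). GUA1, the GMP synthase gene, had 0.23 and 0.12 in K123R (adjusted p = 0.14), 0.00 and 0.17 in the double mutant (adjusted p = 0.48), and 0.23 and 0.08 in ubp8. Its 3 ratios against the htb2 deletion strain, -0.26, 0.44 and 0.22, differed in sign (mean 0.21 ± 0.12, adjusted p = 0.22), and a spot of array 2 was saturated. GUA1 lies on the chromosome of UBP8 with 5 protein-coding genes between them.

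The IMP dehydrogenase genes are near copies of each other, so their probes may share signal, which was not tested. The inactive gene IMD1 is also on the arrays, as the entries YAR073W and YAR075W. YAR073W had -0.34 and 0.10 in K123R over wild type and YAR075W had -0.06 and 0.23, and neither passed the test in any comparison with wild type. Against the htb2 deletion strain YAR073W had 0.60, 0.08 and 0.67 (mean 0.35 ± 0.08, adjusted p = 0.026) and YAR075W had 0.79, 0.57 and 0.73 (mean 0.66 ± 0.08, adjusted p = 0.00658). Both entries rose where IMD2 rose, so IMD2's own share of that signal is uncertain.

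**Figure D4:**
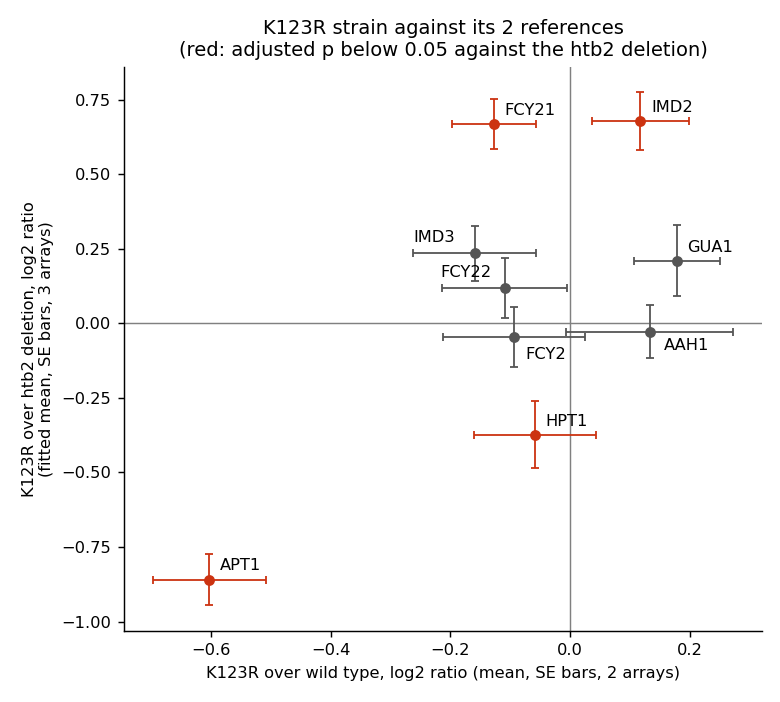
Mean log2 ratio of K123R over wild type (horizontal axis) against that of K123R over the htb2 deletion strain (vertical axis) for the 9 genes tested in both, with SE bars on both axes. APT1 is low in both (-0.60 and -0.86), whereas FCY21 and IMD2 are near 0 on the horizontal axis and at 0.67 and 0.68 on the vertical one.

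Counted over the 10 genes in K123R over wild type, 0 rose and 1 fell, APT1. Of all 6243 genes tested there, 11% were called higher and 10.2% lower, so 1 of 10 is near the background. The median ratio of the 10 genes was -0.08 and that of all genes was 0.00. With slide as a block, AAH1 passed as well (0.26, adjusted p = 0.0205) and APT1 stayed called (-0.51). Each array carried both strains, so the ratio of an array is itself a value within 1 slide.

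In the double mutant over wild type, again 0 rose and 1 fell, APT1, beside 9.87% of 6243 genes called higher and 10% called lower. The median was -0.02, against 0.00 for all genes. With slide as a block, FCY21 passed as well, as lower (-0.20, adjusted p = 0.0461), and APT1 stayed called (-0.56). In ubp8, 1 of 10 rose (FCY21) and 0 fell, where 1.94% of 6243 genes were called higher and 0.961% lower. Nothing is read from that count, since this comparison chose FCY21 and AAH1. AAH1 was not past the threshold there.

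Against the htb2 deletion strain, 9 of the 10 genes were tested, 2 rose (FCY21 and IMD2) and 2 fell (APT1 and HPT1). The background was 15.3% of 5861 genes called higher and 16.6% lower. The median was 0.12, against -0.02 for all genes. Arrays 1 and 2 of this set shared a slide, and within that slide APT1 had -0.83 (adjusted p = 0.00461) and IMD2 had 0.75 (adjusted p = 0.0171). A slide term together with the dye term could not be fitted to 3 arrays. K123R over wild type and K123R over the htb2 deletion strain share the mutant strain, and the difference between them was not tested.

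The double mutant and K123R differ by label in UBP8 alone, in cells whose H2B lacks K123. They also differed in LEU2, by -3.75, so the marker and the loss of UBP8 cannot be told apart in this contrast. The contrast runs through wild type and uses none of the ubp8 arrays. Among the 10 genes 0 passed, as did 0% of the 6243 genes tested by limma, of which 43 (0.689%) had an unadjusted p below 0.05. That is a smaller share than this cutoff gives with no true difference, so the p-values of this contrast run high. UBP8 itself differed by -2.16 ± 0.17 and did not pass (adjusted p = 0.0923), so the count of 0 says nothing about smaller differences. FCY21 differed by -0.02, with a 95% interval of -0.27 to 0.23, and AAH1 by 0.03, with an interval of -0.47 to 0.53.

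Over the other 8 genes the differences between double mutant and K123R ran from -0.13 for IMD4 to 0.13 for FCY22. The widest intervals were those of AAH1 and of FCY2 (-0.44 to 0.41). The intervals are not limits of detection, since far larger differences, those of UBP8 and LEU2, did not pass either. This fit has 2 arrays per group and no dye term.

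Set against the 2 single-mutant ratios added together, the double mutant departed by -1.07 ± 0.12 for FCY21 and -0.75 ± 0.24 for AAH1. This departure contains the ubp8 arrays that chose these genes and is given as a description. Among the other 8 genes it ran from -0.36 for IMD4 to 0.30 for IMD2. Of all 6243 genes, 0% passed by limma, and 476 had an unadjusted p below 0.05.

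Genes of the neighbouring purine pathways give the setting of these values. The 10 genes of de novo purine synthesis had a median of -0.60 in ubp8, where 0 rose and 2 fell, beside 1.94% of all genes called higher and 0.961% lower. Those that fell were ADE17, for the last steps to IMP (-0.76 ± 0.08, adjusted p = 0.0305), and ADE1, for an earlier step (-0.73 ± 0.09, adjusted p = 0.0358). All 10 ratios were negative there, from -0.76 to -0.11, on the arrays where FCY21 and AAH1 were highest.

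In K123R over the htb2 deletion strain, the de novo genes had a median of 0.37, and 7 of 10 rose and 0 fell, beside 15.3% of all genes called higher and 16.6% lower. ADE6 had 0.98 ± 0.14 (adjusted p = 0.00852) and ADE1 had 0.75 ± 0.10 (adjusted p = 0.00726). In K123R over wild type, ADE1 rose (0.42 ± 0.09, adjusted p = 0.033) and ADE16, the paralog of ADE17, fell (-0.28 ± 0.06, adjusted p = 0.0342). That 1 of 10 in each direction is near the 11% of all genes called higher and 10.2% called lower. In the double mutant 0 of 10 passed, beside 9.87% of all genes called higher and 10% lower.

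Of 12 genes for other purine conversions, MEU1, which acts in recycling methylthioadenosine, rose in K123R (0.24, adjusted p = 0.0265) and in the double mutant (0.25, adjusted p = 0.023) over wild type. The 1 of 12 in each is near the 11% and 9.87% of all genes called higher. None of the 12 passed in ubp8, beside 1.94% of all genes called higher and 0.961% lower. In the comparison with the htb2 deletion strain 11 were tested, and the guanine deaminase gene GUD1 rose (0.33, adjusted p = 0.0373). APT2, the paralog of APT1, fell there (-0.30, adjusted p = 0.0415). So 1 of 11 rose and 1 fell, beside 15.3% of all genes called higher and 16.6% lower. The direction of APT2 is that of APT1 in the same comparison, at a smaller ratio.

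Among 8 genes that supply PRPP and one-carbon units, 0 passed in K123R or the double mutant over wild type, beside 9.87% to 11% of all genes called in each direction. ADE3, for one-carbon folate interconversion, fell in ubp8 (-0.45 ± 0.07, adjusted p = 0.0407), the 1 of 8 that passed there, beside 0.961% of all genes called lower. It rose in K123R over the htb2 deletion strain (0.79 ± 0.09, adjusted p = 0.00524), as did MTD1, which also acts on folates (0.46). In all 3 of 8 rose there and 0 fell, beside 15.3% of all genes called higher and 16.6% lower.

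The 8 other transporter genes gave 1 rise and 1 fall in both K123R and the double mutant over wild type, near the shares of all genes called there (9.87% to 11%). The thiamine transporter gene THI7 rose (0.51 and 0.46) and the nucleoside transporter gene FUN26 fell (-0.30 and -0.33). None passed in ubp8, beside 1.94% of all genes called higher and 0.961% lower. FUN26 (-0.43) and the allantoin permease gene DAL4 (-0.39) fell against the htb2 deletion strain. Of 5 pyrimidine salvage genes, FUR1, for uracil phosphoribosyltransferase, fell in all 3 comparisons with K123R (-0.49 over wild type, -0.38 in the double mutant and -0.39 over the htb2 deletion strain). URH1, for a nucleosidase and next to HPT1 on the chromosome, fell in the double mutant (-0.23) and against the htb2 deletion strain (-0.39), where 4 of the 5 were tested. Beside these falls, 10.2% of all genes were called lower in K123R, 10% in the double mutant and 16.6% against the htb2 deletion strain.

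Of 5 genes for regulators of purine synthesis and for the response to 6-azauracil, PHO2, the partner of Bas1 at ADE promoters, rose in K123R (0.34), in the double mutant (0.36) and against the htb2 deletion strain (0.51). DST1, for the elongation factor TFIIS, also rose against the htb2 deletion strain (0.64 ± 0.09, adjusted p = 0.00859). So 1 of 5 rose in K123R, 1 in the double mutant and 2 against the htb2 deletion strain. The shares of all genes called higher were 11%, 9.87% and 15.3%. None of the 5 passed in ubp8, and none fell in any of the 4 comparisons, where 0.961% to 16.6% of all genes were called lower.

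**Figure D5:**
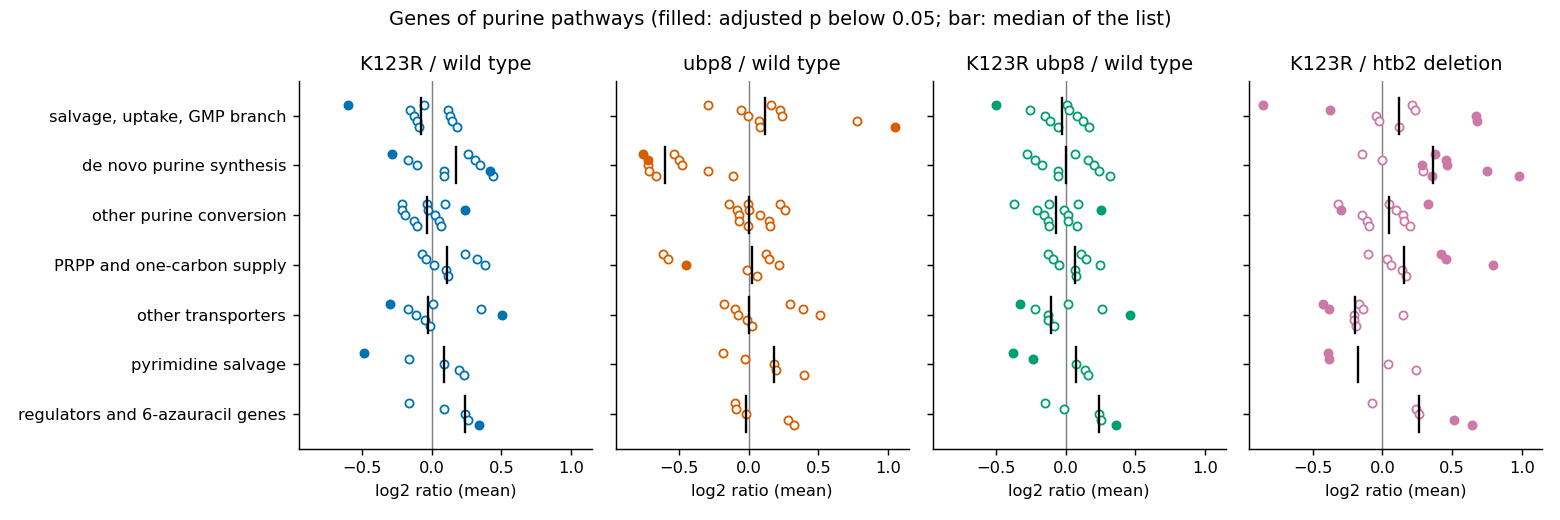
Mean log2 ratio (horizontal axis) of each gene in 7 groups (vertical axis), in 4 panels by comparison. Filled points passed at an adjusted p below 0.05, open points did not, and a bar marks the median of the group. The de novo genes lie left of 0 in ubp8 (median -0.60) and mostly right of it against the htb2 deletion strain (median 0.37).

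The genes on either side of the 10 genes were 18 distinct others on the arrays. In K123R over wild type 2 of 18 fell, near the 10.2% of all genes called lower. They were PHO12 beside IMD2 (-0.36) and CNA1 beside IMD3 (-0.22). The same 2 fell in the double mutant with URH1, beside 10% of all genes called lower. In ubp8, SKY1 beside GUA1 (-0.38) fell with CEM1, 2 of 18 beside 0.961% of all genes called lower. Of the 16 tested against the htb2 deletion strain, CEM1 and SKY1 (0.34) rose. NSE5 beside APT1 (-0.36), URH1 and SPC2 beside IMD4 (-0.32) fell there. With that reference, 2 of 16 higher and 3 lower are near the 15.3% and 16.6% of all genes called. APT1 and NSE5 thus fell together in that comparison alone, and PHO12 fell in comparisons where IMD2 did not pass. IMD2 lies near a chromosome end, with 2 protein-coding genes beyond it.

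The patterns most like those of FCY21, AAH1 and IMD2 were sought among 5286 genes with a ratio on all 9 arrays. The points share dyes and 2 separate normalisations, and they include the ubp8 arrays on which FCY21 and AAH1 were noted. Pearson's r is therefore given as a description. For FCY21 the 5 highest were HTB2 (0.959), BUD9 (0.937), RIM2 (0.935), CHK1 (0.926) and BTT1 (0.925). HTB2 is the gene deleted in K123R and the double mutant, and its ratios spanned -3.87 to 0.52. RIM2 varied little, from -0.18 to 0.04.

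AAH1 was most like AAD14 (0.984), EXO70 (0.983), CIP1 (0.981), XPT1 (0.98) and QCR6 (0.977). XPT1, for xanthine salvage, had 0.19 and 0.33 in ubp8, smaller than the ratios of AAH1. IMD2 was most like ZTA1 (0.987), DPS1 (0.985), HIS4 (0.98), PRB1 (0.98) and IRA1 (0.975). HIS4, for histidine synthesis, had 1.31, 0.66 and 1.15 in K123R over the htb2 deletion strain and -0.68 and -0.43 in ubp8, a wider range than that of IMD2.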

How the data were processed

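RNA of mutant and reference strains was compared on 9 Agilent 2-colour arrays. Spot intensity came from Feature Extraction 7.5.1 (release A, 6 arrays against wild type) and 8.5.1.1 (3 arrays against the htb2 deletion strain), per the file headers. The series table deposited by the authors holds log10 ratios of mutant over reference, which differed from log10 ratios of the scanner files' dye-normalised signals by at most 5e-10. The marks for outlier, saturated and well-above-background spots are the scanner software's, per the file headers.

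From the mean signals and median backgrounds, log2 ratios were computed in R 4.3.3 with limma 3.58.1: normexp background correction with an offset of 50, loess within each array, control and outlier-marked spots left out, and repeated spots averaged. Genes were tested if at least 3 of 6 or 2 of 3 arrays gave a ratio with either colour well above background. The 6 arrays against wild type entered one limma fit with a mean per mutant (3 residual degrees of freedom), from which the contrasts were taken. The 3 others had their own fit with a dye term per gene (1 residual degree of freedom), and 547 genes that could not carry it by the mean. P-values were adjusted by Benjamini-Hochberg over all genes tested, with a threshold of 0.05, and intervals are 95%. The code was tested on simulated data.

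The 10 genes, the pathway lists and the tests were chosen with earlier results of these data known. The named genes are the 10 in every comparison, genes that check genotype, and the 2 passing members of each pathway list with the smallest p. Also named are the entries of IMD1, the neighbours of each gene, and the 5 genes of highest r for FCY21, AAH1 and IMD2. Of 6256 systematic names, 5756 matched a RefSeq locus tag, used for names and gene order only. The other settings were Agilent's processed signals, the deposited values, no background correction, median centring, no filter, outlier spots kept, array number or slide as a block, no dye term, only a mutant's own arrays, and each array left out.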

Additional observations from a re-analysis of the deposited data

Results flagged for a closer look

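FCY21 was flagged because K123R gave opposite signs against its 2 references. The signs also differed for IMD3 (-0.16 and 0.24), FCY22 (-0.11 and 0.12) and AAH1 (0.13 and -0.03), which passed in neither comparison. For FCY21 the mean log2 ratio was -0.13 over wild type, with both arrays below 0, and did not pass (adjusted p = 0.258). It was 0.67 over the htb2 deletion strain, with all 3 arrays above 0, and passed. The difference between these 2 means was not tested, since the 2 sets of arrays were normalised separately and read with different software versions. No group held enough arrays to look for a single array far from the others.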

How the results depend on the processing

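Of 820 values and counts recomputed under other settings, 734 were rated the same, 13 lost a call, 25 gained one and 48 moved otherwise. Among called values 0 changed sign, but some values that were not called did. With array number as a replicate block, which is also a dye term for each gene, 6 of the 10 genes were called in K123R over wild type, 5 in ubp8, 4 in the double mutant, 0 between double mutant and K123R and 5 in the departure from additivity, AAH1 among them in the first 3 and the last, and all genes called rose to 4133, 3118, 4082, 14 and 1337. Deviations of the same-numbered arrays from their group means correlated at 0.865 to 0.886 across genes, but the labels do not say what the 2 numbers share beyond dye orientation. With slide as a block the calls among the 10 were 2, 4 (FCY21, AAH1, HPT1 and IMD2), 2, 0 and 1, and over all genes 2453, 933, 2058, 3 and 22. In ubp8 2 of 10 were called with median centring or with only its own arrays. All genes called there were 91 with processed signals and 113 with deposited values, against 181. Leaving out 1 array gave 0 to 1 calls among the 10 genes in each comparison with wild type, 2 to 4 against the htb2 deletion strain and 0 in both contrasts. All genes called then ranged from 34 to 890, 0 to 8, 3 to 824 and 503 to 2129, and from 0 to 1 in both contrasts. The FCY21 call in ubp8 was lost without either ubp8 array or either double mutant array. The causes were not tested.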
